A study of Homo sapiens with 20 samples.

Results

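CLEC5A and 9 other members of the C-type lectin family were followed in a myeloid leukemia line before and after induction of the transcription factor EVI1. The members are CLEC5A, CLEC7A, CLEC4A, CLEC4D, CLEC4E, CLEC10A, CLEC11A, CLEC12A, CLEC2B and CLEC2D. They were picked by name, with earlier results of these data known. CLEC5A was put first since the study had selected it on its response to tet withdrawal at 24 and 48 h in the EVI1 clones relative to the control lines, on the arrays used here. All probe sets that carry 1 of these symbols and no other were taken, which gave 26 of the 54675 probe sets of the Affymetrix HG-U133 Plus 2.0 array, and 20 of the 26, covering all 10 genes, passed the filter on low values. CLEC5A has 1 probe set.

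U937 cells derive from a human leukemia with monocytic features. E10 and E14 are clones of U937T cells with a human EVI1 cDNA carrying an HA tag, which is kept off by tetracycline (tet) and expressed after its withdrawal. P2 is a U937T clone with the empty vector, and U937T is the parental line with the tet regulator. Both served as controls for tet withdrawal without EVI1. All cells grew in medium with puromycin, and E10, E14 and P2 also received hygromycin. After washing, each culture was placed in medium with or without tet, and RNA was collected at 6, 12, 24 and 48 h from E10 and E14 and at 48 h from P2 and U937T. There is 1 array for each line, time and condition, 20 in all. E10 and E14 are single clones that served as replicates of each other, as did P2 and U937T. The constant difference between the 2 lines of a pair was fitted, except in comparing the clones with the control lines with tet. P-values rest on the remaining variation between the lines, pooled over all groups. Values are log2 intensities, and a difference is always the culture without tet minus the culture with tet of the same line unless stated otherwise.

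C-type lectin receptors share a fold that in many members binds sugars in a calcium-dependent way, and myeloid cells use them to sense microbes, damaged cells and neighbouring leukocytes. Activating members signal through the kinase SYK. Some carry their own tyrosine motif, as CLEC7A does, and others borrow it from an adaptor: CLEC5A pairs with TYROBP (DAP12), and CLEC4E and CLEC4D with the Fc receptor gamma chain FCER1G. Inhibitory members such as CLEC4A and CLEC12A carry a motif that recruits the phosphatases PTPN6 and PTPN11. CLEC2B and CLEC2D are ligands of lymphocyte receptors, and CLEC11A is a secreted growth factor of hematopoietic and bone cells.

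In the RefSeq annotation, 7 of the 10 genes lie on chromosome 12, whereas CLEC5A is on chromosome 7, CLEC10A on chromosome 17 and CLEC11A on chromosome 19. The 250 bases before the CLEC5A start (RefSeq, GRCh38.p14, minus strand, chr7:141946975-141947224) are shown because CLEC5A has the largest difference at 48 h of the 10 members. Capitals mark the motif GAGGAA, a core bound by the myeloid factor PU.1 (SPI1), searched on both strands, so that a copy on the other strand reads TTCCTC.
CLEC5A: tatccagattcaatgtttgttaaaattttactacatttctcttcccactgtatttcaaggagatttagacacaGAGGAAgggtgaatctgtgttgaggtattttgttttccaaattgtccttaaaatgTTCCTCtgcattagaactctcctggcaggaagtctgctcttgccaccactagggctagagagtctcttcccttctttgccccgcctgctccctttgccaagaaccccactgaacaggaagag
The first copy begins 177 bases before the start and the second, on the other strand, 122 bases before it. The motif is common, and 23.6% of 35116 promoters of 250 bases hold at least 1 copy on either strand. The sequence AGATAA, which resembles the site of the GATA factors, is not in this window on either strand, and 9.17% of promoters hold it. The core recognized by the second zinc finger domain of EVI1, searched as GATGAG, is also not in the window, and 10.1% of promoters hold it. These matches describe the letters and do not locate a binding site.

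The transgene followed the labels. MECOM 221884_at, a probe set of the gene that encodes EVI1, was higher without tet by 1.38, 2.44, 2.38 and 3.38 log2 units in E10 at 6, 12, 24 and 48 h and by 1.55, 2.86, 2.26 and 2.82 in E14. It differed by -0.99 in P2 and by 0.05 in U937T. The other MECOM probe set that passed the filter, 208434_at, stayed between 3.02 and 3.68 on all arrays and was not called in any comparison. Across the 20 arrays the median log2 intensity was between 5.25 and 5.35. The difference between 3 prime and 5 prime control probe sets of actin and GAPDH, a sign of RNA quality, was 0.19 to 1.52, with the highest values on the E14 arrays at 24 h (1.52 with and 1.40 without tet). Of 9 monocytic and myeloid markers, LYZ, ELANE, CD4 and SPI1 had mean log2 intensities of 11.94, 11.20, 10.22 and 9.55. CSF1R and ITGAM had 7.62 and 6.71, and MPO, CD14 and FCGR1A were low at 4.97, 4.12 and 3.47. Marker genes of erythroid cells and megakaryocytes (3 measured genes) stayed between 5.12 and 5.67, those of fibroblasts and epithelium (4 genes) between 2.95 and 6.12, and those of lymphoid cells (6 genes) between 4.24 and 8.12 in mean log2 intensity. In bulk RNA, fewer cells that express a gene and less RNA per cell cannot be told apart.

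CLEC5A was much lower in both EVI1 clones without tet at 24 and 48 h, and was not lower without tet in the control lines at 48 h. At 48 h it was 9.10 with and 6.97 without tet in E10, and 9.37 with and 7.20 without tet in E14. In P2 it was 9.37 with and 9.90 without tet, and in U937T 9.72 with and 9.79 without. Both clones without tet lay below every other array, at a level 4.37-fold (E10) and 4.51-fold (E14) lower than with tet. The differences were -2.13 in E10, -2.17 in E14, 0.52 in P2 and 0.08 in U937T, so the clones did not overlap the control lines. The mean difference was -2.15 in the clones and 0.30 in the control lines, and the EVI1-specific response, the former minus the latter, was -2.45 (SE 0.21 from the model). These values at 24 and 48 h are those CLEC5A was selected on and are given with no test. Some cell type markers moved with the same contrast. The maturation marker ITGAM had an EVI1-specific response of 1.35 and the granule protease ELANE one of -1.22. They were the 2 called among 12 probe sets of monocytic and myeloid markers (median -0.14). Of 14 lymphoid probe sets (median -0.11), 2 were called higher, and CD79A and CD3E had 0.73 and 0.89. Of all probe sets tested, 1.38% were called higher and 1.57% lower in this response. The part of these markers in the CLEC5A level was not tested.

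**Figure D1:**
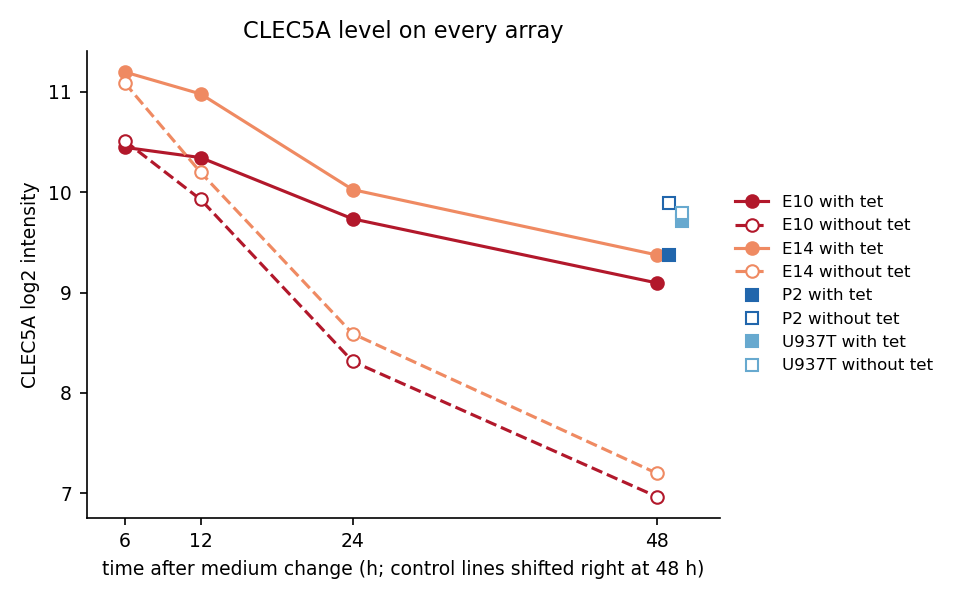
CLEC5A log2 intensity (y axis) on each of the 20 arrays against time in hours after the medium change (x axis); filled symbols are cultures with tet, open symbols without, lines join the arrays of a clone, and squares are the control lines at 48 h, shifted to the right to be seen. The clones part between 6 and 12 h and reach 6.97 (E10) and 7.20 (E14) without tet at 48 h, while the control lines stay between 9.37 and 9.90.

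The time course was close to parallel in the 2 clones. At 6 h, E10 had 10.45 with and 10.51 without tet and E14 had 11.20 and 11.09, which gave a mean difference of -0.02 (SE 0.15, limma adjusted p = 0.997). At 12 h, E10 had 10.34 with and 9.93 without tet and E14 had 10.98 and 10.20. The mean difference of -0.60 (SE 0.15) was negative in both clones, with an unadjusted p of 0.00146 and a limma adjusted p of 0.699, so it did not pass the threshold of an adjusted p under 0.05. At 24 h, E10 had 9.73 with and 8.31 without tet and E14 had 10.02 and 8.59, that is 2.68-fold and 2.70-fold lower without tet. This pair of E14 arrays had the highest 3 prime to 5 prime difference, and with that difference as a covariate the mean of both clones was -1.41 in place of -1.43. The difference at 24 h was -1.42 in E10 and -1.43 in E14.

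CLEC5A was also lower at later times while tet was present. Between 6 and 48 h with tet it dropped from 10.45 to 9.10 in E10 and from 11.20 to 9.37 in E14. The mean change was -1.59 (SE 0.15), in the same direction in both clones. It is given with no test because the arrays with tet at 48 h also entered the selection of CLEC5A, and the control lines have arrays at 48 h only, so their course over time was not analysed here. The 48 h arrays with tet are shared with the response at 48 h. Their level was 9.24 ± 0.20 (SD, n = 2) in the clones and 9.55 ± 0.24 (SD, n = 2) in the control lines.

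Ordered by mean level, CLEC5A ran from 10.82 ± 0.53 in the clones at 6 h with tet through 10.80 ± 0.41 at 6 h without tet to 10.66 ± 0.45 at 12 h with tet (SD, n = 2 each), and these neighbours overlapped. The next were the clones at 12 h without tet (10.06 ± 0.19), at 24 h with tet (9.88 ± 0.21) and the control lines without tet (9.84 ± 0.07), which overlapped each with the next. The control lines with tet (9.55 ± 0.24) and the clones with tet at 48 h (9.24 ± 0.20) met at 9.37. The clones without tet at 24 h (8.45 ± 0.20) and at 48 h (7.08 ± 0.16) stood apart from their neighbours in the order. Within the EVI1 clones, E14 was above E10 in 8 of 8 pairs of arrays, with E10 minus E14 at -0.41 ± 0.21 (SD over the 8 pairs). The gap between the clones was thus smaller than the response at 24 and 48 h.

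The differences of the other members were small. At 48 h the EVI1-specific response of the other 19 probe sets, of 9 genes, lay between -0.49 and 0.48 with a median of -0.02, and 0 of 19 passed limma's adjusted p under 0.05, where 2.95% of all 35610 probe sets tested passed. Of the 19, 4 had an unadjusted p under 0.05, and the lowest adjusted p was 0.0999. CLEC5A had -2.45 in the same model. Against the clones' own cultures with tet, 5 of 19 probe sets (26.3%) were higher and 3 (15.8%) lower at 48 h, beside 13.0% and 11.5% of all probe sets tested. These 8 calls come from 4 genes, CLEC12A, CLEC2D, CLEC4D and CLEC11A, and probe sets of 1 gene read the same transcripts. The 8 calls were lost without E10 or without E14. Those fits leave 1 clone and 1 residual degree of freedom, and calls among all probe sets fell in them too. In the control lines, 1 of 19 was higher and 0 of 19 lower, with 4 at an unadjusted p under 0.05, beside 3.31% and 2.61% of all. That single call was lost on leaving out any 1 line.

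**Figure D2:**
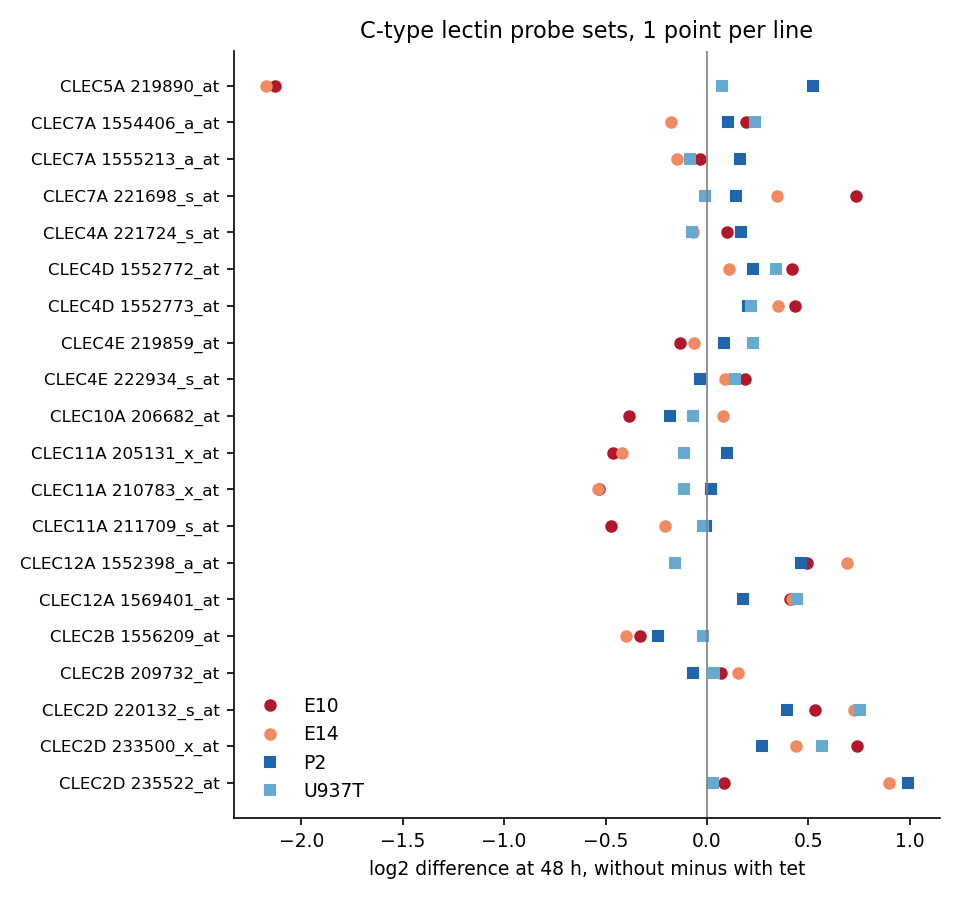
Difference in log2 intensity, without minus with tet at 48 h (x axis), for the 20 probe sets that passed the filter (y axis); circles are the EVI1 clones and squares the control lines, 1 point for each line. Both clones lie at -2.13 and -2.17 for CLEC5A, and for all others every line lies between -0.54 and 0.99.

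Among the activating receptors, CLEC7A (dectin-1), which recognizes fungal beta-glucan, was read by 3 probe sets that passed. At 48 h none was called in the clones (differences from -0.09 to 0.54, limma adjusted p of at least 0.303), although 221698_s_at passed with only the arrays at 48 h (0.54, limma adjusted p = 0.0274) and 1555756_a_at passed without the filter on low values (0.64, limma adjusted p = 0.0384). The probe set 1554406_a_at fell with time in culture with tet, from 5.37 to 4.74 in E10 and from 5.60 to 4.86 in E14 between 6 and 48 h, a mean change of -0.68 (SE 0.11, limma adjusted p = 0.00706), a call lost without E10 or without E14. It was the 1 of 19 probe sets other than CLEC5A that fell in this comparison, and 0 rose, beside 3.39% and 2.80% of all tested. The same probe set was lower without tet at 6 h by 0.46 in E10 and by 0.67 in E14, with an unadjusted p of 0.000291 but a limma adjusted p of 0.968. Of CLEC4D and CLEC4E, which sense mycobacterial glycolipids, CLEC4D rose modestly. Its probe set 1552773_at had 6.36 with and 6.79 without tet in E10 at 48 h, and 6.36 and 6.70 in E14 (0.39, SE 0.12, limma adjusted p = 0.0245), a call lost without the line as a block (limma adjusted p = 0.0623, with 0.0143 to 0.451 over its alternatives). It differed by 0.20 in P2 and 0.22 in U937T, and the EVI1-specific value was 0.18 (limma adjusted p = 0.701). The second CLEC4D probe set, 1552772_at, had 0.27 (limma adjusted p = 0.167). Neither CLEC4E probe set was called in any comparison, and its levels stayed between 3.24 and 3.72 for 219859_at and between 3.89 and 4.43 for 222934_s_at. CLEC10A, a receptor for galactose-type sugars on macrophages and dendritic cells, was between 4.61 and 5.23 on all arrays, with differences of opposite sign in the 2 clones at 48 h (-0.38 and 0.08).

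Of the inhibitory receptors, CLEC12A, a receptor of myeloid cells and of leukemic blasts, went down at 24 h and up at 48 h. At 24 h its probe set 1569401_at was 6.15 with and 5.62 without tet in E10 and 6.11 and 5.72 in E14 (-0.46, SE 0.12, limma adjusted p = 0.0298). At 48 h it was 5.97 with and 6.38 without tet in E10 and 5.94 and 6.36 in E14 (0.41, SE 0.12, limma adjusted p = 0.0262). The other probe set, 1552398_a_at, moved in the same order, with -0.44 (limma adjusted p = 0.0669) at 24 h and 0.59 (SE 0.14, limma adjusted p = 0.00775) at 48 h. In the control lines at 48 h, 1569401_at differed by 0.18 in P2 and 0.45 in U937T, and 1552398_a_at by 0.47 and -0.16, so the clones and controls overlapped for the former. The EVI1-specific values of 0.10 and 0.44 did not pass (limma adjusted p = 0.867 and 0.345). For CLEC4A 221724_s_at, levels lay between 3.85 and 4.35 with no call in any comparison.

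**Figure D3:**
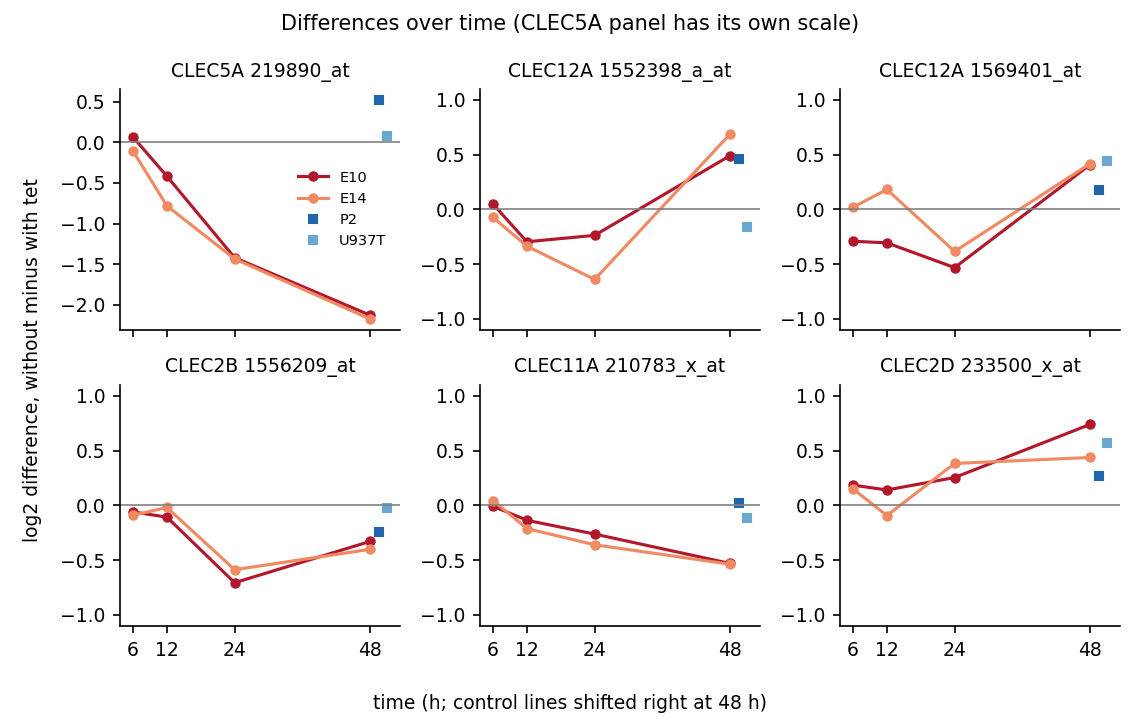
Difference in log2 intensity, without minus with tet (y axis), against time in hours (x axis) for CLEC5A, 2 probe sets of CLEC12A and 1 each of CLEC2B, CLEC11A and CLEC2D; circles joined by lines are the clones and squares the control lines at 48 h, and the CLEC5A panel has its own scale. CLEC12A 1569401_at is below 0 in both clones at 24 h (-0.53 and -0.38) and above 0 at 48 h (0.41 and 0.42), while CLEC11A 210783_x_at declines to -0.53 and -0.54.

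CLEC2B and CLEC2D, which NK cells and T cells recognize through KLRF1 and KLRB1, were called at different times. For CLEC2B, 1556209_at fell at 24 h, with 10.19 with and 9.49 without tet in E10 and 10.09 and 9.50 in E14 (-0.65, SE 0.14, limma adjusted p = 0.00846). At 48 h the difference was -0.36 (limma adjusted p = 0.0771). Its other probe set, 209732_at, with levels between 12.79 and 13.13, had -0.22 at 24 h (limma adjusted p = 0.196) and 0.11 at 48 h. CLEC2D was higher without tet in all 4 lines at 48 h. For 233500_x_at the levels with and without tet were 4.27 and 5.01 in E10, 4.35 and 4.79 in E14, 4.27 and 4.54 in P2, and 4.10 and 4.67 in U937T. The mean difference was 0.59 in the clones (SE 0.13, limma adjusted p = 0.00352) and 0.42 in the control lines (limma adjusted p = 0.0713). For 220132_s_at it was 0.63 in the clones (limma adjusted p = 0.00599) and 0.57 in the control lines (limma adjusted p = 0.0357), and this was the single call among the members in the control lines. The clones and control lines overlapped in both of these probe sets, and the levels of 220132_s_at, between 2.93 and 4.07, are among the low values of the array. The other CLEC2D probe set that passed the filter, 235522_at, was not called in the clones (0.49, limma adjusted p = 0.254). Its differences at 48 h were uneven, with 0.08 in E10, 0.90 in E14, 0.99 in P2 and 0.03 in U937T.

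Among the 9 other genes, the called falls at 48 h were those of CLEC11A, in all 3 of its probe sets. For 210783_x_at the level was 11.17 with and 10.64 without tet in E10, 11.24 and 10.70 in E14, 11.15 and 11.17 in P2, and 11.18 and 11.07 in U937T. Both clones without tet lay below all other arrays at 48 h, and the fall was 1.44-fold in E10 and 1.45-fold in E14. The mean difference was -0.53 (SE 0.10, limma adjusted p = 0.00145) for this probe set, -0.44 (limma adjusted p = 0.00471) for 205131_x_at and -0.34 (limma adjusted p = 0.0229) for 211709_s_at. The last call was also lost with only the arrays at 48 h (limma adjusted p = 0.0984) and without the 12 and 24 h arrays of E14 (limma adjusted p = 0.0582). The EVI1-specific values were -0.49, -0.43 and -0.33, with limma adjusted p of 0.0999, 0.138 and 0.300. At 24 h, 205131_x_at was already lower (-0.34, limma adjusted p = 0.0415). The suffix of these probe sets marks probes that may also bind related transcripts.

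Over all members, no probe set was called at 6 h (0 of 20 by limma, 1 at an unadjusted p under 0.05) or at 12 h (0 of 20, 2 at an unadjusted p under 0.05), beside 0% and 0.0225% of all tested. At 24 h, 0 of 19 were higher and 3 (15.8%) lower, beside 5.39% and 6.34%. These 3, in CLEC2B, CLEC12A and CLEC11A, were lost without E10, without E14, or without the 12 and 24 h arrays of E14. Those fits leave 1 array in each group of the clones at 24 h, and calls among all probe sets fell in them too. With the 3 prime to 5 prime difference as a covariate, 3 of 19 were called. With tet present at 48 h, no probe set passed between the clones and the control lines (0 of 19 by limma, 0 at an unadjusted p under 0.05, lowest adjusted p 0.787), beside 0.00842% of all. The 6 probe sets that did not pass the filter, 3 of CLEC7A and 1 each of CLEC4A, CLEC12A and CLEC2D, had levels between 2.12 and 4.75 and differences at 48 h between -0.39 and 0.70.

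The adaptor that CLEC5A depends on moved the other way. TYROBP was 6.07 with and 10.05 without tet in E10 at 48 h, 6.22 and 10.12 in E14, 5.92 and 8.55 in P2, and 6.05 and 7.97 in U937T. All 4 lines rose, by 15.7-fold and 14.9-fold in the clones and by 6.17-fold and 3.78-fold in the control lines, and the clones lay above the controls. The log2 difference was 3.93 in the clones (limma adjusted p = 8.53e-09) and 2.27 in the control lines (limma adjusted p = 8.28e-06), and the EVI1-specific response of 1.66 passed (SE 0.23, limma adjusted p = 0.00215) except without E10 or without E14. With tet present, TYROBP fell by 0.87 from 6 to 48 h (limma adjusted p = 0.0114). FCER1G, the adaptor of CLEC4E and CLEC4D, rose in all 4 lines, with 8.83 and 11.61 in E10, 8.63 and 11.61 in E14, 8.33 and 10.73 in P2, and 8.49 and 10.63 in U937T, with and without tet. Its log2 difference was 2.88 in the clones and 2.27 in the control lines, both called, and the EVI1-specific value of 0.60 did not pass (limma adjusted p = 0.339). In both clones at 48 h, CLEC5A was thus lower and these adaptors were higher in the same arrays.

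**Figure D4:**
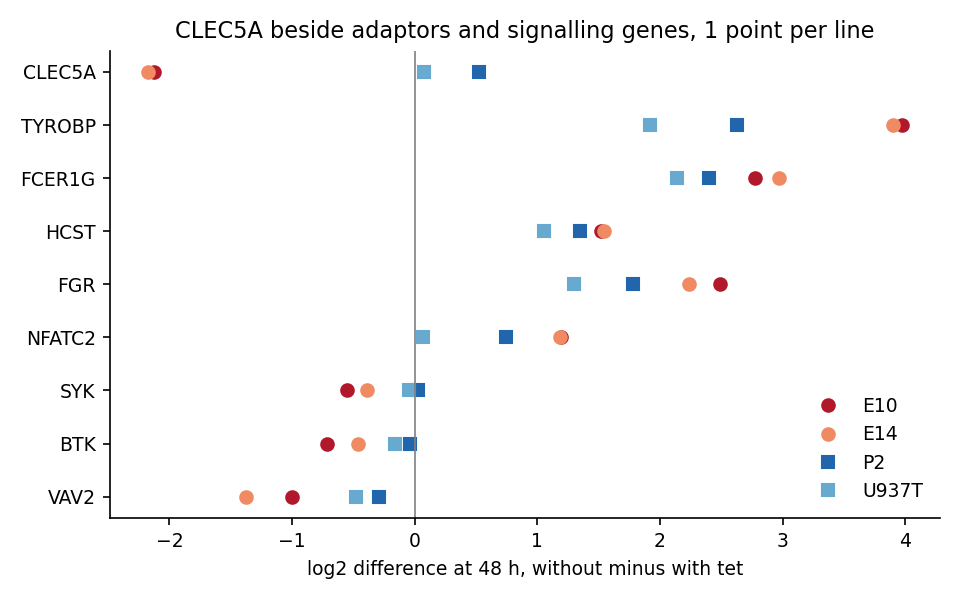
Difference in log2 intensity, without minus with tet at 48 h (x axis), for CLEC5A and 8 adaptor and signalling genes (y axis), 1 probe set for each gene; circles are the EVI1 clones and squares the control lines. TYROBP lies at 3.97 and 3.90 in the clones and at 2.63 and 1.92 in the control lines, on the opposite side of 0 from CLEC5A in the clones.

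Of the adaptor and signalling list (64 probe sets of 25 genes), 24 (37.5%) were higher and 5 (7.81%) lower in the clones at 48 h, beside 13.0% and 11.5% of all probe sets tested, with a median difference of 0.34 against -0.03 over all. In the control lines 9 (14.1%) were higher and 0 lower, beside 3.31% and 2.61% of all. In the EVI1-specific response 1 (1.56%) was higher (TYROBP) and 1 (1.56%) lower (VAV2 226063_at). These shares were close to the 1.38% and 1.57% of all probe sets tested. At 24 h, 9 (14.1%) were higher and 3 (4.69%) lower, beside 5.39% and 6.34%. Fewer were called once the 12 and 24 h arrays of E14 were left out, as was the case among all probe sets. FGR, a kinase of the SRC family that starts ITAM signalling, rose by 2.49 in E10, 2.24 in E14, 1.78 in P2 and 1.30 in U937T. NFATC2 228442_at, a transcription factor driven by calcium, rose in the clones (1.19 and 1.18) and had 0.75 in P2 and 0.06 in U937T. VAV2, a guanine nucleotide exchange factor, fell by 1.00 in E10 and by 1.37 in E14 and had -0.29 in P2 and -0.48 in U937T. Its EVI1-specific response of -0.81 passed (limma adjusted p = 0.0272), a call lost on leaving out any 1 line.

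The kinases named next and HCST were chosen after their values were seen. SYK 207540_s_at, the kinase shared by the activating receptors, was lower in the clones at 48 h (-0.55 and -0.39, mean -0.47, limma adjusted p = 0.0443) and had 0.03 in P2 and -0.05 in U937T. The call is lost without the line as a block (limma adjusted p = 0.127, with 0.0264 to 0.379 over its alternatives), and the EVI1-specific value of -0.46 did not pass (limma adjusted p = 0.377). BTK, a kinase downstream of SYK, was lower in the clones by 0.71 and 0.46, a call lost without E10 or without E14, and its EVI1-specific value of -0.49 did not pass (limma adjusted p = 0.0987). HCST (DAP10), the other adaptor of CLEC5A, rose by 1.52 in E10, 1.55 in E14, 1.35 in P2 and 1.05 in U937T, a rise in the clones and in the control lines whose difference did not pass (0.33, limma adjusted p = 0.342). Of the phosphatases used by inhibitory lectins (10 probe sets of 3 genes), 2 (20%) were higher and 0 lower in the clones at 48 h, beside 13.0% and 11.5% of all probe sets. The median difference of the list was -0.15 against -0.03 over all, and INPP5D 1568943_at and 203331_s_at were not called. The 2 called were PTPN6 206687_s_at, higher by 0.76, and INPP5D 203332_s_at, higher by 0.62. Both calls were lost without E10 or without E14. In the EVI1-specific response 0 of 10 passed by limma (2 at an unadjusted p under 0.05), and in the control lines 0 of 10 (3).

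Other C-type lectin genes were read by 34 probe sets of 25 genes. At 48 h, 4 (11.8%) were higher and 0 lower in the clones, beside 13.0% and 11.5% of all probe sets tested, and 4 (11.8%) were higher and 0 lower in the control lines, beside 3.31% and 2.61%. They were the same probe sets, 2 of CLEC12B and 1 each of KLRF1 and CD69. KLRF1, the receptor for CLEC2B, rose as well, with 6.75 and 8.65 in E10, 6.82 and 8.76 in E14, 6.06 and 7.45 in P2, and 6.27 and 7.42 in U937T, with and without tet. CLEC12B, an inhibitory receptor, rose by 1.85 (231357_at) and 2.16 (231600_at) in the clones and by 0.97 and 1.23 in the control lines, where both calls were lost without P2 and the second also without U937T. CD69, an early activation antigen of leukocytes, rose by 1.07 in the clones and by 0.57 in the control lines, the latter call being lost on leaving out any 1 line. In the EVI1-specific response 0 of 34 passed by limma, with 4 at an unadjusted p under 0.05. At 24 h 1 was higher, ASGR2 206130_s_at, a subunit of the asialoglycoprotein receptor (0.85, limma adjusted p = 0.008), beside 5.39% of all. That call was lost without E10, without E14 and without the 12 and 24 h arrays of E14 (limma adjusted p = 0.0901, 0.102 and 0.161).

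Of the myeloid transcription factors (15 probe sets of 10 genes), 8 (53.3%) were lower and 0 higher in the clones at 24 h, beside 6.34% and 5.39% of all, and 7 (46.7%) lower and 1 higher at 48 h, beside 11.5% and 13.0%. In the control lines at 48 h, without EVI1, 4 (26.7%) were lower and 1 higher, beside 2.61% and 3.31%. In the EVI1-specific response 1 (6.67%) was lower, MYB 204798_at, and 0 higher, beside 1.57% and 1.38%. MYB 215152_at was called in the clones at 24 and 48 h but not in this response. The count at 24 h was lower without E10, without E14 and without the 12 and 24 h arrays of E14, as it was among all probe sets. SPI1, which encodes PU.1, was 9.68 with and 9.17 without tet in E10 at 24 h and 9.78 and 8.97 in E14 (-0.66, limma adjusted p = 0.0357), a call lost without the 12 and 24 h arrays of E14 and without the block (limma adjusted p = 0.352 and 0.0523, with 0.0197 to 0.414 over its alternatives). At 48 h the SPI1 differences were 0.60 in E10, -0.08 in E14, -0.27 in P2 and -0.15 in U937T, with no call. MYB 204798_at, a factor of progenitor cells, fell at 48 h, with 12.38 with and 11.07 without tet in E10 and 12.36 and 11.25 in E14. It differed by -0.30 in P2 and -0.47 in U937T, and its EVI1-specific response of -0.82 passed (limma adjusted p = 0.0122), a call lost on leaving out any 1 line. IRF8, a factor of monocyte development, fell by 0.77 in the clones and by 0.48 in the control lines at 48 h, the latter call being lost on leaving out any 1 line.

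The genes whose pattern over the 20 arrays was most like that of CLEC5A were MT1H (Pearson r = 0.94), SLC26A2 (0.94), SERPINB8 (0.93), MT1E (0.93) and MTRR (0.93), out of 17859 other genes with 1 probe set each. These correlations are a description, since the arrays share lines, cultures and the same tet withdrawal. MT1H and MT1E are metallothioneins, which bind zinc and copper, SLC26A2 is a sulfate transporter, SERPINB8 inhibits serine proteases, and MTRR keeps methionine synthase active. At 48 h MT1H differed by -1.19 in E10, -1.05 in E14, -0.23 in P2 and -0.26 in U937T. SERPINB8 differed by -1.18, -1.29, -0.05 and 0.16 in the same order. Over only the 8 arrays of E10 and E14 with tet, the most similar genes were ITGAL (0.99), SKIL (0.99), MT1X (0.98), LANCL2 (0.98) and CD53 (0.98). Over all 20 arrays their r was -0.06, 0.13, 0.93, 0.53 and -0.37 in the same order. At 48 h ITGAL differed by 2.34 in E10 and 1.79 in E14, CD53 by 2.75 and 2.79, and MT1X by -1.27 and -1.06. Among the other members, r with CLEC5A was between -0.76 (CLEC2D 233500_x_at) and 0.51 (CLEC7A 1554406_a_at).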

How the data were processed

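The 20 RNA samples were hybridized to Affymetrix HG-U133 Plus 2.0 arrays, 1 array each. The authors' deposited values are log2 intensities from Robust Multi-array Analysis (background correction, quantile normalization and median polish), without detection calls, and were used as they are. Quantile normalization makes the arrays alike in distribution, so that shifts common to all genes cannot be seen. The number of arrays limits the precision.

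Symbols came from the platform annotation. Of 54675 probe sets, 41097 had 1 symbol, and 35610 of these passed the filter, which asked for a mean of 3 or more on the log2 scale in the 24 and 48 h arrays of each EVI1 clone and the 48 h arrays of each control line. All were fitted with limma 3.58.1 in R 4.3.3, with 10 groups and the line as a fixed block (8 residual and 4.73 prior degrees of freedom), the comparison of the clones with the control lines in the presence of tet without the block (10 and 4.36). P-values were adjusted over all 35610 by the method of Benjamini and Hochberg. Scripts were tested on simulated data. The line is a block since arrays with and without tet come from the same line. E10 minus E14 had a median correlation across probe sets of 0.11 between groups (28 pairs, -0.22 to 0.64), and P2 minus U937T one of -0.24 between the 2 conditions.

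The members and gene lists were chosen with earlier results of these data known. Named genes are all member probe sets, up to 5 called genes of each list with the largest EVI1-specific response, and the 5 genes most similar to CLEC5A. Some of the listed genes were not analysed here. Alternatives covered the filter, the probe set of a gene, centring, the variance model, the block, the arrays in the fit and leaving out each line. Those without the E14 arrays at 12 and 24 h, with the 3 prime to 5 prime difference as a covariate, with crossed control lines, and with the arrays with tet for the similar genes were chosen after seeing the data.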

Additional observations from a re-analysis of the deposited data

Results flagged for a closer look

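For 2 probe sets both EVI1 clones moved one way at 48 h and both control lines the other way. CLEC5A differed by -2.13 in E10 and -2.17 in E14, against 0.52 in P2 and 0.076 in U937T. CLEC4E 219859_at differed by -0.13 in E10 and -0.061 in E14, against 0.084 in P2 and 0.23 in U937T. The difference between clones and control lines was not tested for CLEC5A, which was selected on it. For CLEC4E the EVI1-specific value was -0.25 (limma adjusted p = 0.598).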

How the results depend on the processing

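No called member probe set, and no gene named as called at 24 or 48 h from the lectin, signalling, phosphatase and transcription factor lists, changed sign in any alternative in which it was fitted. Values with no call were not followed in this way. For CLEC10A, SPI1, CLEC4A 221724_s_at and CLEC7A 1554406_a_at at 48 h the signs of E10 and E14 differed. The count of member probe sets called at 24 h (3 of 19) became 5 of 9 with a mean log2 intensity of at least 5, beside 4611 of 23103 among all. It became 1 of 9 with 1 probe set per gene, beside 3059 of 17860. The 3 calls were lost without the 12 and 24 h arrays of E14, without E10 and without E14. At 48 h (8 of 19) the count became 4 of 9 with 1 probe set per gene, beside 5477 of 17860 among all. The 8 calls were lost without E10 and without E14. These 2 fits rest on 1 residual degree of freedom, from the control lines, and assume that the lone clone varies like them. Calls among all probe sets at 24 and 48 h fell in both fits too. In the control lines (1 of 19) it became 0 with the stricter filter, with only the arrays at 48 h and without the 12 and 24 h arrays of E14, 2 with the control lines paired crosswise, and 0 when any line was left out. The EVI1-specific count (0 of 19) became 2 with an intensity trend and robust estimation, CLEC11A 205131_x_at (-0.43, limma adjusted p = 0.0473) and 210783_x_at (-0.49, limma adjusted p = 0.0336). For time in culture with tet (1 of 19) it became 2 of 25 without the filter and 0 of 9 with the stricter filter, which leaves out the CLEC7A probe set. The call of that probe set was lost without E10 and without E14. CLEC5A at 24 h was -1.45 after centring each array and -1.41 with the 3 prime to 5 prime difference as a covariate.

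Without the replicate block, the member counts at 24 and 48 h were 2 and 7, since CLEC11A 205131_x_at at 24 h (limma adjusted p = 0.0667, with 0.0107 to 0.73 over its alternatives) and CLEC4D 1552773_at at 48 h (limma adjusted p = 0.0623, with 0.0143 to 0.451) no longer passed. Pairing the control lines crosswise gave 2360 calls in the control lines and 1152 EVI1-specific calls among all probe sets, against 2108 and 1049. Without E10, 96 EVI1-specific calls remained in number among all probe sets, and without E14, 80. A second CLEC5A probe set could not be tried, as the array has 1 with this symbol alone.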
